A study of Homo sapiens with 6 samples.

Results

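The genes described here are IGF2BP1, IGF2BP2 and IGF2BP3, LIN28A and LIN28B, HMGA1 and HMGA2, and GPC3, a set of 8 genes that are active in embryonic tissues and return in many tumours. Each was taken from the array rows whose platform annotation gave exactly 1 gene symbol, equal to the gene, and the row with the highest mean over the 6 arrays would have stood for a gene with several. Of the 8 genes, 7 had such a row, and each of the 7 had only 1, so no choice by level was needed. HMGA1 lay only on a row shared with its pseudogene HMGA1P8 and is given apart. The 7 genes are among 22465 named genes of the series. The set was chosen by known biology with the levels and the shSND1 minus sh-Vector changes of these same 6 arrays already in view, so the changes below are a description, and the p-values of the fit across all named genes are a record of size against replicate spread, not independent support.

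The study measured gene expression on Affymetrix arrays. The first group (shSND1) comprised 3 samples of a stable line carrying the pLKO hairpin shSND1-#1 against SND1, a nuclease and transcriptional coactivator that binds RNA. The second (sh-Vector) comprised 3 samples of a stable line carrying the pLKO vector. All 6 samples are labelled HepG2, an established line from a liver tumour of the hepatoblastoma type, and all had received fluorouracil (5-Fu), an inhibitor of thymidylate synthase, at 6 µg/mL for 48 h. A single hairpin was used and untreated cells were not analysed here, so loss of SND1 cannot be told apart from other effects of this hairpin, and the effect of the drug is not measured.

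The IGF2BP proteins bind messenger RNAs, many of them carrying N6-methyladenosine, and protect them from decay. LIN28A and LIN28B bind precursors of the let-7 microRNAs and block their maturation. Mature let-7 in turn represses the transcripts of LIN28B, HMGA2 and the IGF2BP genes, so the set forms a loop in which LIN28 proteins keep the other transcripts high. HMGA1 and HMGA2 are small chromatin proteins that bend AT-rich DNA, and HMGA2 is known to activate transcription of IGF2BP2. GPC3, glypican-3, is a heparan sulfate proteoglycan of the cell surface used as a marker of hepatocellular carcinoma and hepatoblastoma.

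The let-7 sequences are shown first because they join the LIN28 proteins to the other genes of the set. The RefSeq table (GRCh38.p14) held the hairpins of all 12 family genes searched, which give 9 distinct mature sequences from the 5′ arm with 1 shared seed. The following mature sequences differ outside the seed (bases 2 to 8, in capitals).
hsa-let-7a-5p: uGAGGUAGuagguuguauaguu
hsa-let-7d-5p: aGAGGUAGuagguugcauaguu
hsa-let-7i-5p: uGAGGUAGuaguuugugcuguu
hsa-miR-98-5p: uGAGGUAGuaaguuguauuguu

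LIN28 proteins are known to contact the letters GGAG in the part of the precursor between the mature arms. These letters stood there in 9 of the 12 hairpins. The hairpins of MIRLET7A2, which holds them (in capitals), and MIR98, which does not, are shown because these were the let-7 genes whose 2 groups of arrays did not overlap.
MIRLET7A2 hairpin: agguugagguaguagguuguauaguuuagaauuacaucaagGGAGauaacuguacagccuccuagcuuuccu
MIR98 hairpin: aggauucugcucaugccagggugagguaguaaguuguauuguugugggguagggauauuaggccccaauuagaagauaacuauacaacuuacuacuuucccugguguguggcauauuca
The first lies at chr11:122146522-122146593 and the second at chrX:53556223-53556341, both on the minus strand.

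Values are RMA log2 signals, on which a difference of 1 is a 2-fold change. Array medians over 67528 transcript clusters (the array's unit for a transcribed locus) lay between 3.58 and 3.73, and signals of different genes come from different probes and do not rank transcripts by abundance. On the cluster shared by SND1 and the RNA SND1-IT1, the signal was 5.80 ± 0.10 in shSND1 cells and 7.28 ± 0.14 in sh-Vector cells (SD, n = 3 each), which left 35.6% of the sh-Vector signal (limma adjusted p = 0.0166 over all clusters, of which 0.0118% passed). Leaving out each array in turn gave adjusted p-values of 0.0411 to 0.249, of which only that without sh-Vector replicate 3 was under 0.05. Across the named genes 38 passed a limma adjusted p of 0.05, 7 higher and 31 lower.

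The labelled cell type was set against its markers. Of 15 measured hepatocyte and hepatoblastoma markers, 10 lay below the median level of all named genes (4.83). ALB, serum albumin, had 1.83 in shSND1 cells and 1.82 in sh-Vector cells, and AFP, alpha-fetoprotein, had 1.50 in shSND1 cells and 1.51 in sh-Vector cells. ALB and AFP lay near the floor of every array, although both are listed as markers of the labelled cell type. This mismatch was not resolved, and the cells are called by their label here. The liver markers of highest mean did not move alike. The apolipoprotein genes APOA2 and APOH had 7.87 and 5.88 in shSND1 cells and 7.79 and 6.32 in sh-Vector cells (changes 0.08 and -0.44, limma adjusted p = 0.613 and 0.184). SERPINA1, the alpha-1 antitrypsin gene, had 5.36 ± 0.04 in shSND1 cells and 5.79 ± 0.12 in sh-Vector cells (SD, n = 3 each), a change of -0.43 (limma adjusted p = 0.0831). FOXA2, a liver transcription factor gene, had a change of 0.06 (adjusted p = 0.722). The shSND1 arrays of APOH and SERPINA1 lay below all sh-Vector arrays. The mean level of the liver list was 3.64 to 3.73 on shSND1 arrays and 3.72 to 3.76 on sh-Vector arrays. Of 10 epithelial markers 9 lay above the median. Of the 11 pluripotent and germ cell markers, named since LIN28A belongs to such cells, 9 lay below it, as did 8 of 9 leukocyte and endothelial and 8 of 9 fibroblast markers. The leukocyte marker above it was CD68, a lysosomal protein gene of macrophages, with 7.90 ± 0.08 in shSND1 cells and 8.45 ± 0.18 in sh-Vector cells (SD, n = 3 each), a change of -0.55 (limma adjusted p = 0.0831). The mean level of the epithelial list was 7.55 to 7.59 on shSND1 arrays and 7.75 to 7.85 on sh-Vector arrays, with CDH1, the epithelial cadherin gene, lower past the threshold (change -0.95, limma adjusted p = 0.00954). Of the 10 epithelial markers 9 had a negative change. At unadjusted limma p under 0.05 there were 6 lower, against 7.34% of named genes. The keratin genes KRT8, KRT18 and KRT19 had changes of -0.19, -0.23 and -0.33 (limma adjusted p = 0.209, 0.17 and 0.116). The adjusted p of CDH1 was 0.0116 to 0.0821 with each array left out, and over 0.05 without sh-Vector replicate 2, shSND1 replicate 1 or shSND1 replicate 3. The part of these marker differences in the results below was not tested. The mean level of the pluripotent list was 3.34 to 3.41 on shSND1 arrays and 3.32 to 3.42 on sh-Vector arrays.

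IGF2BP3, an embryonic paralog that returns in many carcinomas, had the largest change of the set. Its signal lay between percentiles 93.2 and 95.9 of named genes over the 6 arrays. It had 7.70, 7.76 and 7.82 on the shSND1 arrays, against 7.46, 7.43 and 7.34 on the sh-Vector arrays. All shSND1 arrays lay above all sh-Vector arrays, and the gap between the groups was wider than the spread within either. The group means were 7.76 ± 0.06 in shSND1 cells and 7.41 ± 0.06 in sh-Vector cells (SD, n = 3 each). The log2 change was 0.35 (SE 0.06, 95% confidence interval 0.21 to 0.49), or 1.28-fold (1.16 to 1.41). Its limma adjusted p over all named genes was 0.0831, above the threshold of 0.05. A larger positive change was found in 0.997% of named genes. Leaving out each array in turn kept the change between 0.32 and 0.38, with limma adjusted p-values from 0.0889 to 0.316. The adjusted p fell below 0.05 under 3 of the 13 alternatives. These were without the dimmest named genes (0.0255), after renewed quantile normalization (0.0332) and with a variance trend (0.0466). Under them 271, 61 and 133 named genes passed, against 38 in the main fit. With arrays centred on their medians the change was 0.30 (limma adjusted p = 0.23). A floor at the 30th percentile and a replicate block gave adjusted p-values of 0.161 and 0.289.

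IGF2BP2, the paralog that stays on in adult tissues, had a signal between percentiles 84.1 and 88.1 and overlapping groups. It had 6.80, 6.67 and 6.86 on the shSND1 arrays, against 6.72, 6.67 and 6.56 on the sh-Vector arrays. The second array of each group gave almost the same value, and shSND1 replicate 2 also lay below sh-Vector replicate 1. The log2 change was 0.13 (SE 0.07, 95% confidence interval -0.04 to 0.29, limma adjusted p = 0.527).

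IGF2BP1, the paralog most restricted to embryonic tissue, gave a signal below the median, between percentiles 40.6 and 42.9 of named genes. Without detection calls, this level does not show whether the transcript was present. It had 4.50, 4.48 and 4.37 on the shSND1 arrays, against 4.25, 4.30 and 4.42 on the sh-Vector arrays. The groups overlapped through the third array of each. The log2 change was 0.13 (SE 0.07, 95% confidence interval -0.02 to 0.28, limma adjusted p = 0.496).

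The change of IGF2BP3 was set against those of its paralogs within each array, which compares changes and not levels. The difference of IGF2BP3 minus IGF2BP2 was 0.99 ± 0.10 in shSND1 cells and 0.76 ± 0.02 in sh-Vector cells (SD, n = 3 each), so that the changes of the 2 genes differed by 0.23. The groups did not overlap. For IGF2BP3 minus IGF2BP1 it was 3.31 ± 0.13 in shSND1 cells and 3.09 ± 0.15 in sh-Vector cells (SD, n = 3 each), a difference of 0.22, and the groups overlapped. These values are a description, since IGF2BP3 is taken here for its larger change and a two-sided exact permutation test of 3 arrays against 3 cannot give a p below 0.1.

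**Figure D1:**
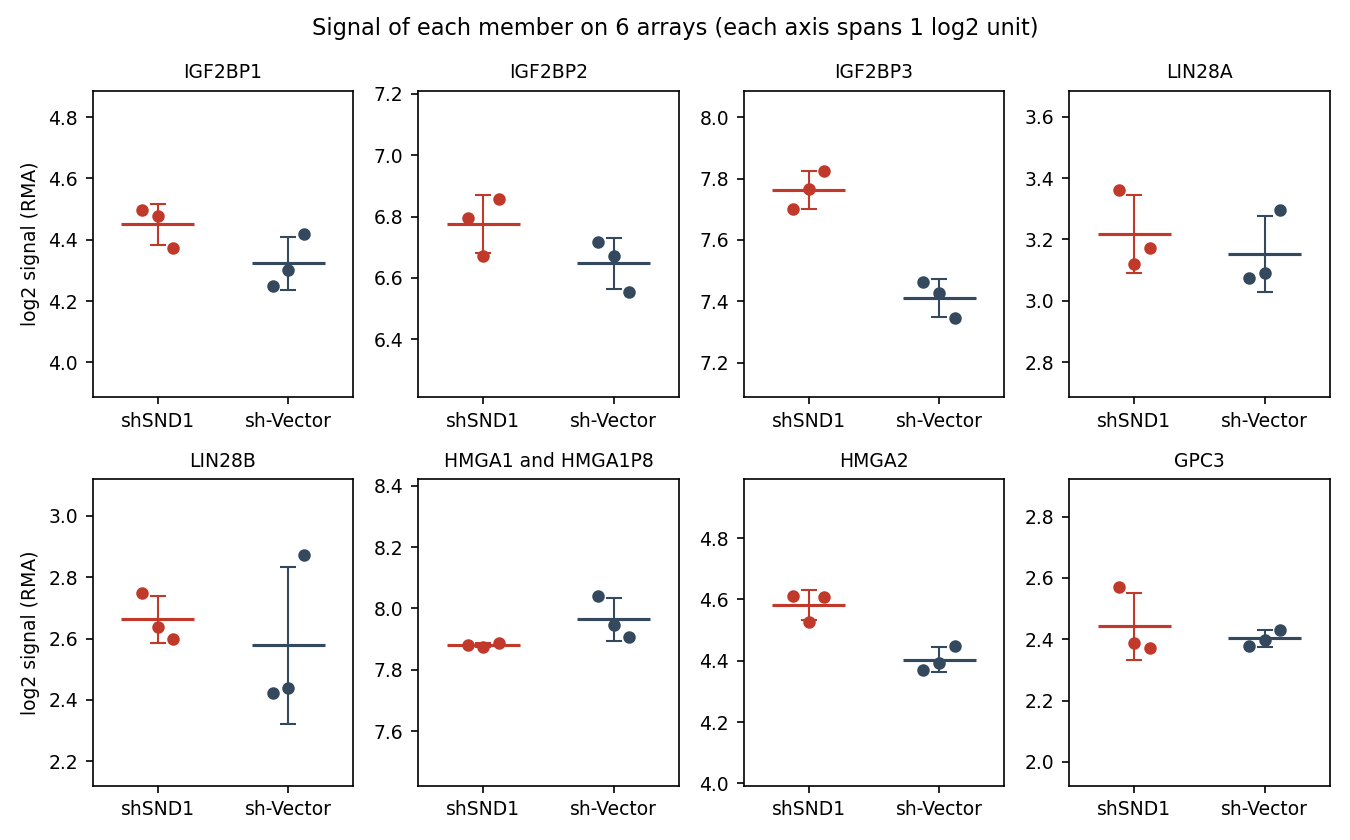
RMA log2 signal (vertical axes, each spanning 1 log2 unit) of the 8 genes in shSND1 cells (left in each panel) and sh-Vector cells (right), with a point for each array, a line at the group mean and bars of 1 SD (n = 3). The shSND1 points of IGF2BP3 (7.70 to 7.82) and HMGA2 (4.53 to 4.61) lie above all sh-Vector points, and those of the cluster shared by HMGA1 and HMGA1P8 lie below all sh-Vector points.

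The promoters of IGF2BP3 and IGF2BP2 are shown because these are the 2 measured members above the median level, whose groups were apart in one and overlapped in the other. RefSeq windows (GRCh38.p14, 250 bases before to 50 after a start) were listed for 4 of the 8 genes, those of IGF2BP2, IGF2BP3, HMGA1 and LIN28B. Both strands were searched for the E-box CACGTG, the CCAAT box CCAAT, the TATA box TATAAA and the GC box GGGCGG. The E-box reads the same on both strands and was counted once, and none of these motifs contains another. Capitals mark the E-box.
IGF2BP3 promoter, chr7:23470442-23470741, minus strand: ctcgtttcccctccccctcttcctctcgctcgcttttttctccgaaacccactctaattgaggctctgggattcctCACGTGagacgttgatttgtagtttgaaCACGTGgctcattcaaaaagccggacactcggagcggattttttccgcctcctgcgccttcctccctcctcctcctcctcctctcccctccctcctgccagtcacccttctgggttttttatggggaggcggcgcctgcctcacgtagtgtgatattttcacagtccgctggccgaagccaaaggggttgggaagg
IGF2BP2 promoter, chr3:185824993-185825292, minus strand: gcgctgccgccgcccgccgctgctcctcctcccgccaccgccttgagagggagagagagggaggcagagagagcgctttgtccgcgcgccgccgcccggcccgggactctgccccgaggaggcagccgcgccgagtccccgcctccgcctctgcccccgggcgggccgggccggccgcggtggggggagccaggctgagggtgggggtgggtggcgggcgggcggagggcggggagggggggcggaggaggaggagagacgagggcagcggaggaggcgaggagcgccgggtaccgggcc

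The IGF2BP3 window held 2 E-boxes and none of the other 3 motifs, with a GC content of 56.3%. At least 1 E-box stood in 7.26% and at least 2 in 0.664% of 35116 windows of the same length. The IGF2BP2 window printed had a GC content of 80.7%, 7 GC boxes and no E-box. At least 1 GC box stood in 45.0% and at least 2 in 26.7% of windows. Another IGF2BP2 window, not printed, had a GC content of 35.0%, 1 CCAAT box, 1 TATA box and neither a GC box nor an E-box. The first HMGA1 window held 5 GC boxes and 1 CCAAT box, a motif in 34.6% of windows, and the TATA box stood in 11.5% of windows. One of the LIN28B windows held 1 E-box. These matches describe letters in a window and were not tied to binding or to the changes.

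Both LIN28 genes gave low signals on every array. LIN28A, the paralog of pluripotent cells, had 3.36, 3.12 and 3.17 on the shSND1 arrays, against 3.07, 3.09 and 3.30 on the sh-Vector arrays. LIN28B, the paralog found in liver tumours, had 2.75, 2.64 and 2.60 on the shSND1 arrays, against 2.42, 2.44 and 2.87 on the sh-Vector arrays. Each was high on sh-Vector replicate 3 relative to the other sh-Vector arrays, and the groups overlapped in both.

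The log2 change was 0.07 (SE 0.09, 95% confidence interval -0.14 to 0.27, limma adjusted p = 0.792) for LIN28A and 0.08 (SE 0.12, -0.19 to 0.36, limma adjusted p = 0.807) for LIN28B. LIN28A lay between percentiles 24.1 and 26.1 of named genes and LIN28B between 16.8 and 21.3. Signals this low do not show whether either transcript was present. The change of LIN28A turned to -0.0065 without shSND1 replicate 1. That of LIN28B was 0.23 without sh-Vector replicate 3, 0.0067 without sh-Vector replicate 1 and 0.014 without sh-Vector replicate 2.

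HMGA2 gave a signal below the median, between percentiles 42.1 and 46.1 of named genes, with a small gap between the groups. Without detection calls, this level does not show whether the transcript was present. It had 4.61, 4.53 and 4.61 on the shSND1 arrays, against 4.37, 4.39 and 4.45 on the sh-Vector arrays. No array of one group reached into the other. The log2 change was 0.18 (SE 0.05, 95% confidence interval 0.05 to 0.30), or 1.13-fold, with a limma adjusted p of 0.248 and an unadjusted p of 0.0119.

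HMGA1 was measured by a cluster that also carries HMGA1P8, so signals of gene and pseudogene cannot be told apart. The cluster had 7.88, 7.87 and 7.89 on the shSND1 arrays, against 8.04, 7.95 and 7.91 on the sh-Vector arrays. The shSND1 arrays lay together just below the lowest sh-Vector array. The log2 change was -0.08 (SE 0.07, 95% confidence interval -0.24 to 0.07, limma adjusted p = 0.731 over all clusters), the opposite sign to HMGA2, and neither passed the threshold.

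GPC3 gave a low signal, between percentiles 15.6 and 17.3 of named genes. It had 2.57, 2.39 and 2.37 on the shSND1 arrays, against 2.38, 2.40 and 2.43 on the sh-Vector arrays. A single array, shSND1 replicate 1, stood above the others, and without it the change was -0.023. The log2 change over all arrays was 0.04 (SE 0.07, 95% confidence interval -0.12 to 0.20, limma adjusted p = 0.837). Like those of ALB and AFP, the GPC3 signal was low for a marker of the labelled tumour type. A signal this low does not show whether the transcript was present.

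Of the 7 measured genes 0 passed the limma adjusted p of 0.05, a threshold that 0.169% of all named genes passed, 0.0312% being higher and 0.138% lower. Without adjustment, a limma p under 0.05 was reached by 2, IGF2BP3 and HMGA2, both higher, against 4.85% of named genes that were higher and 12.2% in either direction. The same 2 genes had groups that did not overlap with shSND1 above, against 6.33% of named genes (17.9% in either direction). All 7 had a positive change, which 52.9% of named genes had. Arrays centred on their medians gave 6 positive changes of 7, with GPC3 at -0.017. The 6 were 0.30 for IGF2BP3, 0.12 for HMGA2, 0.071 for IGF2BP1 and 0.070 for IGF2BP2. LIN28B had 0.027 and LIN28A 0.0090. Each was smaller than with the values as deposited.

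The sign of small changes went with the level across the array. Positive changes were found in 63.7% of named genes below the median level and 42.1% of those above it, with median changes of 0.03 and -0.02. Of the 7 measured genes 5 lay below the median (IGF2BP1, LIN28A, LIN28B, HMGA2 and GPC3) and 2 above (IGF2BP2 and IGF2BP3). On sh-Vector replicate 3 these 5 genes had the highest and the 2 bright genes the lowest of the 3 sh-Vector values. Among all named genes that array was the highest sh-Vector array in 52.8% of those below the median and the lowest in 57.9% of those above it. The part of this array-wide pattern in the small changes was not tested. The median change of the 7 genes was 0.13, against 0.0071 over all named genes. These medians are only a description, since the 7 genes were chosen with their changes in view.

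**Figure D2:**
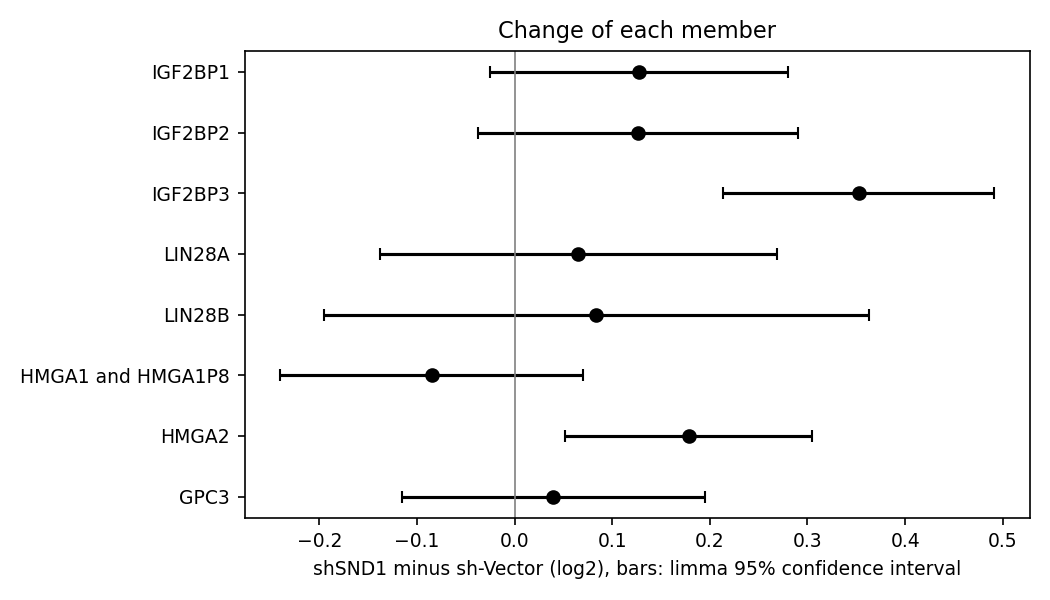
Log2 change of shSND1 minus sh-Vector (horizontal axis) of each of the 8 genes, with limma's 95% confidence interval, not adjusted for the number of genes. Only the intervals of IGF2BP3 (0.21 to 0.49) and HMGA2 (0.05 to 0.30) leave out 0, and neither gene passed the adjusted threshold.

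The let-7 genes themselves gave low signals in both groups. The array reads the loci of the precursors and not the mature microRNAs. Of 12 family genes 10 were measured, all below the median level, and none passed the limma threshold. There were 5 positive and 5 negative changes, with a median of -0.01. At unadjusted limma p under 0.05 there were 1 higher and 1 lower, against 4.85% and 7.34% of all named genes. Named by their mean signal were MIRLET7I, with 4.49, 4.56 and 4.06 on the shSND1 arrays, against 4.34, 4.41 and 4.22 on the sh-Vector arrays (change 0.04, SE 0.13), and MIRLET7A1 (change 0.10, SE 0.10). MIRLET7A2 had 2.43, 2.52 and 2.42 on the shSND1 arrays, against 2.38, 2.16 and 2.14 on the sh-Vector arrays (change 0.23, limma adjusted p = 0.28). Its signal lay between percentiles 12.3 and 17.3 of named genes, and with values raised to a floor at the 30th percentile the change was 0.02. MIR98 had 3.57, 3.52 and 3.51 on the shSND1 arrays, against 3.66, 3.91 and 3.65 on the sh-Vector arrays (change -0.21, limma adjusted p = 0.357). Without sh-Vector replicate 2, its highest array, the change was -0.12. These 2 loci, chosen after their values were seen, had groups that did not overlap, in opposite directions. Of all named genes 6.33% had groups apart with shSND1 above and 11.6% with shSND1 below.

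Of 12 measured LIN28 cofactors and let-7 processing factors, 1 passed the limma threshold with a higher signal and 11 did not pass. Of all named genes 0.0312% passed as higher. The one was DICER1, the endonuclease that cuts let-7 and other precursors into mature microRNAs. It had 6.64, 6.79 and 6.79 on the shSND1 arrays, against 6.24, 6.27 and 6.17 on the sh-Vector arrays. All shSND1 arrays lay above all sh-Vector arrays (log2 change 0.51, SE 0.06, limma adjusted p = 0.0421). Leaving out any of the 6 arrays in turn raised the adjusted p above 0.05 (0.0537 to 0.25) with changes of 0.48 to 0.56. The limma adjusted p was also above 0.05 with centred arrays (0.11), a replicate block (0.234) and a floor at the 30th percentile (0.143). In all, 4 of 13 alternatives kept it under 0.05. The uridylyl transferase genes TUT4 and TUT7, whose products tail LIN28-bound precursors, had values of 0.03 (SE 0.08) and 0.04 (SE 0.07) for the log2 change, both turning negative with centred arrays or without shSND1 replicate 3, and DIS3L2, whose exonuclease degrades them, had -0.03 (SE 0.05). These 3 were named for their role.

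None of 30 measured let-7 target genes passed the threshold. At unadjusted p (limma) under 0.05 there were 4 above and 1 below the sh-Vector level, with 21 positive changes and a median of 0.03. Of all named genes 4.85% were higher and 7.34% lower at that p. Groups did not overlap in 7 targets with shSND1 above and 1 with shSND1 below, against 6.33% and 11.6% of all named genes. RRM2, a ribonucleotide reductase subunit, had 7.16 ± 0.06 in shSND1 cells and 6.76 ± 0.08 in sh-Vector cells (SD, n = 3 each), a change of 0.40 (limma adjusted p = 0.0823). E2F5, a cell cycle transcription factor, had a change of 0.18 (adjusted p = 0.348) and GEMIN7, of the complex that assembles spliceosomal particles, one of -0.33 (adjusted p = 0.248).

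Transcripts reported elsewhere as bound or regulated by IGF2BP proteins, listed with protein partners, numbered 26 measured. Of these 1 passed the limma threshold with a lower signal and 25 did not pass. Of all named genes 0.138% passed as lower. Their median change was 0.03, with 16 positive. At unadjusted limma p under 0.05 there were 3 higher and 2 lower, against 4.85% and 7.34% of all named genes. Groups did not overlap in 5 with shSND1 above and 2 with shSND1 below, against 6.33% and 11.6% of all named genes. FSCN1, encoding the actin-bundling protein fascin, had 7.85, 7.90 and 7.87 on the shSND1 arrays, against 8.50, 8.41 and 8.36 on the sh-Vector arrays. The shSND1 arrays were close together and all below the sh-Vector arrays (log2 change -0.55, SE 0.06, limma adjusted p = 0.034). With each array left out in turn the adjusted p was 0.0468 to 0.22, and only that without sh-Vector replicate 3 stayed under 0.05. It was also above 0.05 with a replicate block (limma, 0.234) and a floor at the 30th percentile (0.104). In all, 6 of 13 alternatives kept it under 0.05. The laminin chain gene LAMB2 had a change of -0.31 (adjusted p = 0.172), the proliferation marker gene MKI67 one of 0.23 (adjusted p = 0.209) and the drug efflux pump gene ABCB1 one of 0.20 (adjusted p = 0.307).

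IGF2, which encodes the fetal growth factor that gave the IGF2BP family its name, lay on a cluster shared with INS and INS-IGF2. That cluster had 6.29, 6.15 and 6.07 on the shSND1 arrays, against 6.06, 5.98 and 6.06 on the sh-Vector arrays (change 0.14, SE 0.08, limma adjusted p = 0.644 over all clusters). H19, the imprinted noncoding RNA beside IGF2, shared a cluster with MIR675, which had a bright signal of 11.18 ± 0.03 in shSND1 cells and 11.23 ± 0.08 in sh-Vector cells (SD, n = 3 each). The difference of -0.05 (SE 0.07) was within the replicate spread. None of 14 measured genes of the IGF axis passed. At unadjusted limma p under 0.05 there was 1 lower, against 7.34% of all named genes. IGFBP4, a secreted IGF-binding protein, had 7.38 ± 0.07 in shSND1 cells and 7.66 ± 0.03 in sh-Vector cells (SD, n = 3 each), a change of -0.29 (limma adjusted p = 0.126).

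None of 16 measured writers, readers and erasers of N6-methyladenosine passed, 11 with a negative change and a median of -0.02. At unadjusted limma p under 0.05 there was 1 lower. Of all named genes 4.85% were higher and 7.34% lower at that p, which serves for each list in this paragraph. The demethylase gene FTO differed by -0.15 (SE 0.06, limma adjusted p = 0.366) and the reader gene YTHDF1 by -0.12 (SE 0.05, adjusted p = 0.441). None of 12 other glypican and syndecan genes passed (0 at unadjusted p under 0.05), and SDC1, syndecan-1, differed by -0.13 (SE 0.06, adjusted p = 0.44). None of 12 other HMG genes passed (1 higher and 1 lower without adjustment, at p under 0.05). Groups did not overlap in 4 of them with shSND1 above and 1 with shSND1 below, against 6.33% and 11.6% of all named genes. HMGB2, a DNA-bending protein of dividing cells, had a change of 0.23 (adjusted p = 0.22), HMGB1 one of 0.14 (adjusted p = 0.412) and HMGXB3 one of -0.33 (adjusted p = 0.126). Of 11 other oncofetal liver genes none passed (1 lower at unadjusted p under 0.05), and KRT19, a keratin of bile duct and progenitor cells, had a change of -0.33 (adjusted p = 0.116).

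**Figure D3:**
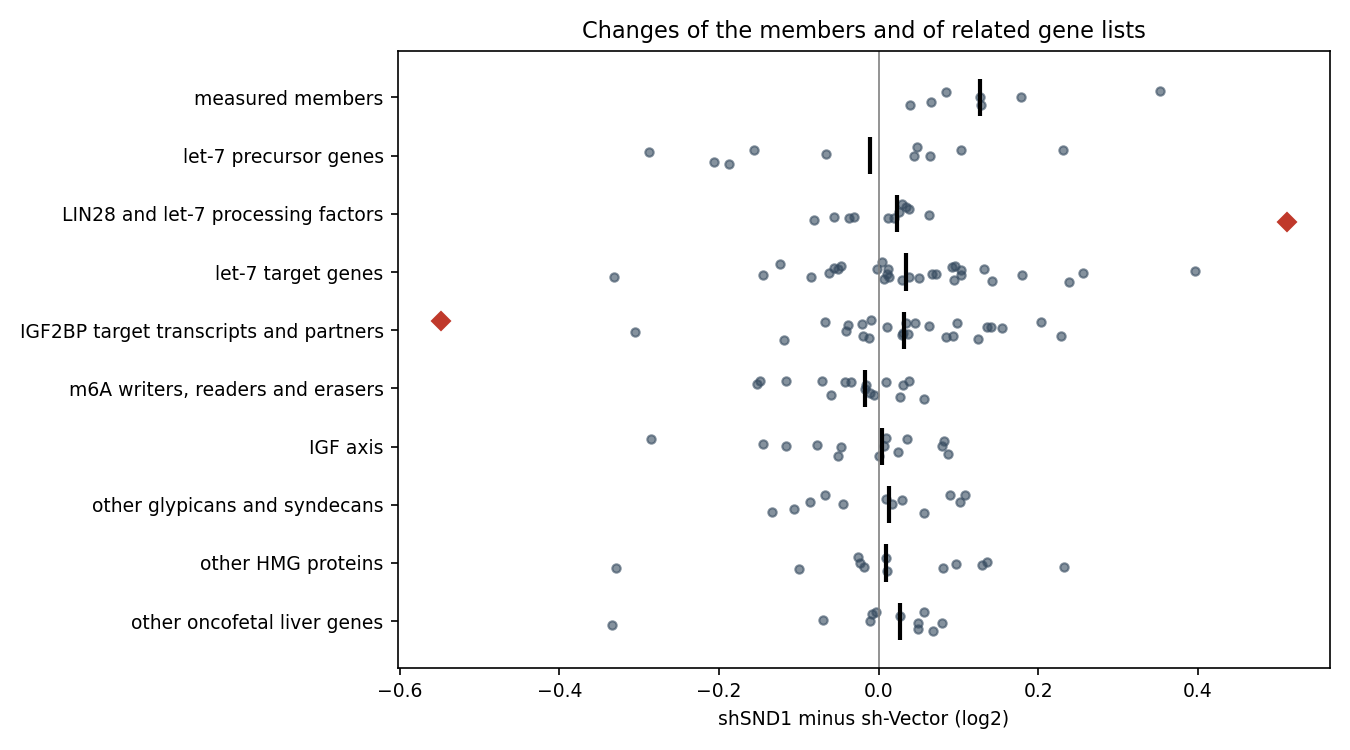
Log2 change of shSND1 minus sh-Vector (horizontal axis) of the 7 measured members and of the measured genes of 9 related lists, with a point for each gene, a black bar at the list median and a red diamond for a limma adjusted p under 0.05. Only DICER1 (0.51) and FSCN1 (-0.55) are marked. The list medians lie between -0.02 and 0.03, and that of the members lies at 0.13. The members were chosen with their changes in view, and several lists differ from them in level, so these medians are only a description.

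Of the 7 measured genes only IGF2BP3 had both groups apart and a level above the median. Its profile over the 6 arrays was compared with those of the 11231 other named genes above the median level. Likeness was the root mean square difference of log2 values, each gene centred on its own mean. The closest were SNORA21, a small nucleolar RNA, at 0.036, BTF3L4, a relative of a basal transcription factor gene, at 0.0366, and RNU6ATAC2P, a small nuclear RNA pseudogene, at 0.0382. Their changes were 0.34, 0.34 and 0.31, with limma adjusted p-values of 0.0668, 0.091 and 0.161. These genes were picked for their likeness, so changes near that of IGF2BP3 follow from the choice and are no support for it. Small RNA genes can have near-identical copies, so the first and the third are uncertain.

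**Figure D4:**
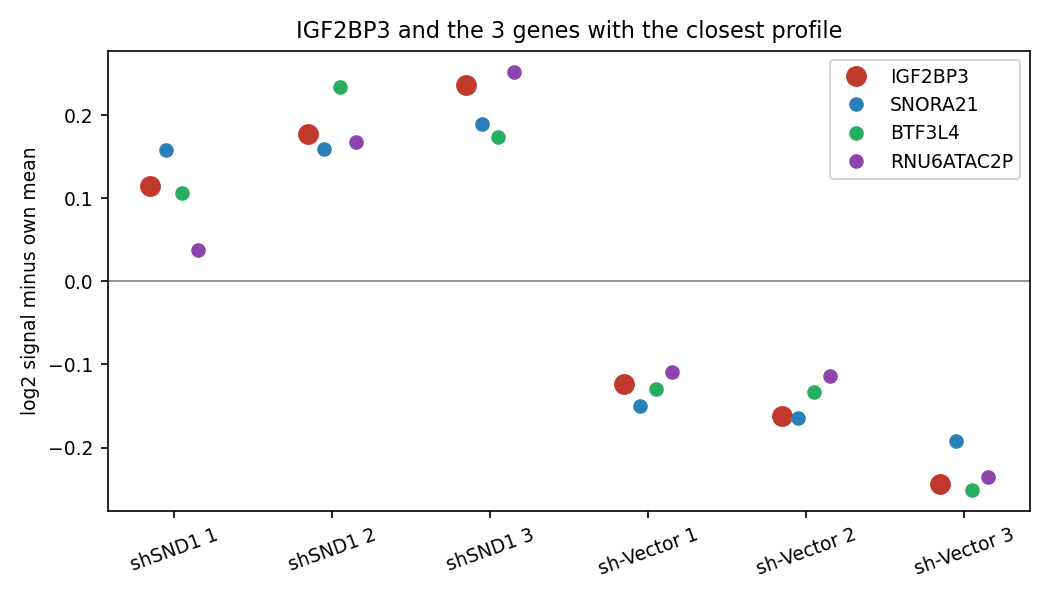
Log2 signal minus each gene's own mean over the 6 arrays (vertical axis) of IGF2BP3 (large points) and the 3 genes with the closest profile, for shSND1 arrays 1 to 3 (left) and sh-Vector arrays 1 to 3 (right). All 4 genes lie above 0 on the shSND1 arrays and below 0 on the sh-Vector arrays, which follows from choosing the 3 for their likeness to IGF2BP3.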

How the data were processed

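The authors deposited 1 table of log2 signals, summarised with RMA per the submitters' processing notes (a method of background correction, quantile normalization between arrays and probe summary, with version and build not given in the sources used here). Of 70523 features, 67528 were transcript clusters. The platform annotation gave 1 symbol for 23781, several for 1543, and for the remaining 42204 none in the table used. The cluster with the highest mean stood for a gene (479 genes had several). Groups came from the sample titles. limma 3.58.1 in R 4.3.3 (lmFit, eBayes, group as only term, all 6 arrays) gave changes, moderated SE and Benjamini-Hochberg adjusted p-values over all 22465 named genes, or over all clusters for shared ones. The limma fit was tested on simulated data, and the other steps were not. Figures used matplotlib 3.10.9.

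The genes and lists were chosen with earlier results of these data known. Besides the 8 genes and the SND1 cluster, each list named up to 4 genes past the threshold by size of change and up to 3 with groups apart, the largest changes and a mean above the median, or, with neither, the 2 with the highest mean. Marker lists named up to 4 genes of highest mean, ALB and AFP. IGF2 and H19 are given by their shared clusters. The labels do not say whether replicates came from separate cultures, and p-values cover only how far these samples vary, perhaps for technical reasons. The number of arrays limits the precision. Alternatives were a replicate block, a filter on dim genes, renewed quantile normalization, centring, a floor, a variance trend, the median over clusters and leaving out each array. No detection calls were used.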

Additional observations from a re-analysis of the deposited data

How the results depend on the processing

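Each group had only 3 arrays, which bounds the precision. The count of named genes past the threshold (38) was 271 without the dimmest 40% of named genes, 133 with a variance trend and robust fitting, 61 after renewed quantile normalization, 15 with arrays centred on their medians, 1 with the replicate block and 0 with a floor at the 30th percentile (limma, with 2614 genes at unadjusted p under 0.05). With each array left out in turn it was 0 to 35, namely 35 without sh-Vector replicate 3 (23 of them among the 38), 5 without shSND1 replicate 2, 2 without sh-Vector replicate 1, 1 without sh-Vector replicate 2 or shSND1 replicate 3, and 0 without shSND1 replicate 1 (2308 at unadjusted p under 0.05). Of the set 1 gene, IGF2BP3, passed without the dimmest genes (change 0.35), after quantile normalization (0.39) and with the variance trend (0.35), and 0 passed with any array left out. The count of list genes past the threshold (2) was 6 without the dimmest genes, 1 with centring, 0 with the replicate block or the floor, and 0 to 1 with an array left out. Higher and lower calls, 7 and 31 as deposited, were 12 and 49 after quantile normalization and 1 and 14 with centring, where the median change of all genes was -0.05.

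Signs turned with centring for GPC3 (-0.017), MIRLET7I (-0.012), TUT4 (-0.022) and TUT7 (-0.018), and after quantile normalization for MIRLET7I (-0.012). With arrays left out the change ranged from -0.0065 to 0.14 for LIN28A, 0.0067 to 0.23 for LIN28B, -0.023 to 0.075 for GPC3, -0.048 to 0.20 for MIRLET7I, -0.041 to 0.076 for TUT4 and -0.0091 to 0.099 for TUT7. The cause was not tested. LIN28A, LIN28B and GPC3 were among the dimmest genes and have no value without them, and shared clusters were not run for that filter or for the median over clusters.

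Deviations of arrays with the same replicate number correlated at -0.364, 0.107 and -0.486 over the genes above the median level. Deviations within a group of so few arrays are tied to each other, so these values do not settle whether the numbers mark pairs. Whether arrays of the same number shared a culture or a batch was not tested. With the replicate block the change of IGF2BP3 was 0.35 (limma adjusted p = 0.289).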
